A study of Mus musculus with 6 samples.

Results

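The endoplasmic reticulum (ER) chaperones and unfolded protein response genes described here are 10 mouse genes chosen by name: Hspa5, Hsp90b1, Pdia3, Pdia4, Pdia6, Dnajb9, Herpud1, Creld2, Manf and Sdf2l1. They were matched by NCBI gene ID, and 10 of 10 were found among the 17254 genes that had a value in any of the gene tables. Transcript levels came from bulk RNA sequencing of cultured mouse neural progenitor cells. The cells were labelled control, which the study describes as mock-treated, or exposed to the pro-oxidant paraquat (PQ) or the antioxidant N-acetylcysteine (NAC). The comparisons ask how a shift of the cellular redox state toward oxidation or reduction changed the ER folding genes. Each group had 2 libraries, and treatment lasted 48 h. The 6 libraries held between 9680436 and 10698241 expected counts.

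Control 1 and PQ 1 were labelled C57BL/6 with an Ink/Ark knockout genotype, and their RNA was purified on columns. Control 2, PQ 2, NAC 1 and NAC 2 carried no genotype or strain label, and their RNA was extracted with TRIZOL. The study's methods describe the cells as an immortalized Ink/Arf-/- culture derived from neonates, a mixture of quiescent and activated stem cells, neuronal precursors and oligodendroglial progenitors grown with EGF and bFGF. A paraquat dose of 5 µM was labelled for PQ 1. The labels do not say whether libraries of a group came from separate cultures, so the p-values measure only the spread between these libraries, which may be technical. Both NAC libraries belonged to the TRIZOL protocol, whereas control and PQ had a library in each protocol. The labels split sequencing platform and read processing along the same lines. Differences between the labelled protocols therefore cannot be told apart from differences of platform or processing.

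Cdkn2a, the gene of the locus named in the genotype label, had an FPKM (fragments per kilobase of transcript, scaled to the size of the library) of 16.6 and 19.1 in control, 13.7 and 15.9 in PQ and 14.4 and 15.7 in NAC. A value for the whole gene does not show whether its fragments lay outside the deleted part, so it checks nothing about the genotype. The neural progenitor markers were abundant: all 6 of 6 had a mean FPKM of at least 1, their summed FPKM was 3267 and 3337 in control, 3625 and 3681 in PQ and 2525 and 2443 in NAC, and Vim was the most abundant at a mean of 2073. Among 5 oligodendrocyte progenitor markers, Olig1 was the most abundant at a mean FPKM of 429, and the summed FPKM was 651 and 752 in control, 767 and 665 in PQ and 814 and 924 in NAC, whereas Sox10 was at 0 in control and PQ. Astrocyte markers, 6 of 6 with a mean FPKM of at least 1, summed to 152 and 143 in control, 121 and 126 in PQ and 232 and 232 in NAC. The lower sum in PQ was that of Slc1a3, the most abundant, whose log2 fold change against control was -0.48, whereas Aldh1l1 went the other way, at 1.11 and 1.34 in control, 3.28 and 2.36 in PQ and 1.11 and 0.68 in NAC. Of 6 neuronal markers 5 were in the tables and 1 reached a mean FPKM of 1; they summed to 38.4 and 36.2 in control, 33.9 and 35 in PQ and 65.5 and 59 in NAC, nearly all of it Map2. In NAC Tubb3 went the other way, at 2.38 and 1.3 in control and 0.32 and 0.44 in NAC. So did Syt1 (0.17 and 0.23 in control, 0.06 and 0.11 in NAC). In PQ Tubb3 was lower than in control, at 0.72 and 0.47, as was the sum. Dcx did not exceed 0.08. Microglial markers stayed at or below a summed FPKM of 4.59, endothelial markers at or below 0.62 and fibroblast and pericyte markers at or below 2.24; the most abundant were P2ry12, Pecam1 and Dcn. Sums of the 6 proliferation genes were 653 and 675 in control, 404 and 440.1 in PQ and 802 and 745 in NAC, with Pcna the most abundant. The part of these differences in cell composition and proliferation in the results for the ER genes was not tested, and in bulk RNA fewer cells of a type cannot be told apart from less RNA per cell.

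Secreted and membrane proteins fold in the ER with the help of chaperones, disulfide isomerases and their cofactors. When unfolded proteins accumulate there, the sensors IRE1, PERK and ATF6 start the unfolded protein response, in which XBP1 and cleaved ATF6 raise transcription of chaperone and degradation genes, while PERK slows translation and raises ATF4. Dividing cells such as neural progenitors need this machinery for new membrane and secreted proteins.

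Many promoters of this response carry the ER stress response element (ERSE), CCAAT and CCACG separated by 9 bases, which ATF6 and NF-Y can bind. Promoter sequences from RefSeq (GRCm38.p6) were found for 9 of the 10 genes; Manf was not matched. In the 250 bases before the start, on either strand, ERSE was present in 4 of these 9 genes, against 35 of 27025 genes with a promoter (0.13%). ERSE and the related ERSE-II, ATTGGNCCACG, are elements of promoters of this response, so their share among these genes is no separate result. ERSE-II occurred in 1 of the 9 and in 0.037% of all genes. The stretches below show the matched letters. Capitals mark the paired CCAAT and CCACG, or their reverse complements, and in Herpud1 the ERSE-II.

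Hspa5, chr2:34772020-34772048, + strand: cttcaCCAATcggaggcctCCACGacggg
Hsp90b1, chr10:86705633-86705661, - strand: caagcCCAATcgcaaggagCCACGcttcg
Hsp90b1, chr10:86705528-86705556, - strand: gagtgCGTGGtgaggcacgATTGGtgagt
Pdia6, chr12:17266486-17266514, + strand: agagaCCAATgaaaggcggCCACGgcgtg
Creld2, chr15:88819515-88819543, + strand: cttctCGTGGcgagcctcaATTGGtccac
Herpud1, chr8:94386372-94386392, + strand: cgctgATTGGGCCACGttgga

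The single CCAAT, which overlaps ERSE, was present in 9 of 9 genes and in 37.5% of all genes, and CCACG in 7 of 9 and in 31% of all genes. The XBP1-type element TGACGTGG was found in 0 of the 9 and in 0.603% of all genes. The ATF4-type element TGATGNAAT was likewise found in 0 of the 9 and in 0.91% of all genes. A further form, TTGCATCA, was chosen only after the Herpud1 promoter had been read; it lay in the Herpud1 promoter alone among the 9 and in 0.918% of all genes. A match is a description of these letters and does not show that a factor binds there.

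By FPKM, which corrects for transcript length, Hsp90b1 was the most abundant of the 10 genes with a mean of 524 over the 6 libraries, followed by Pdia3 at 327 and Hspa5 at 309.6. Pdia3 and Hspa5 overlapped across libraries and their order was not fixed. Pdia6 had a mean of 116, Pdia4 of 89.9 and Manf of 71.4, and every library of each lay above every library of the next. Dnajb9 at 31.6 and Creld2 at 29.3 overlapped, as did their neighbours Herpud1 at 15.2 and Sdf2l1 at 9.16. The plot of levels by library shows the values of each gene in every library.

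**Figure D1:**
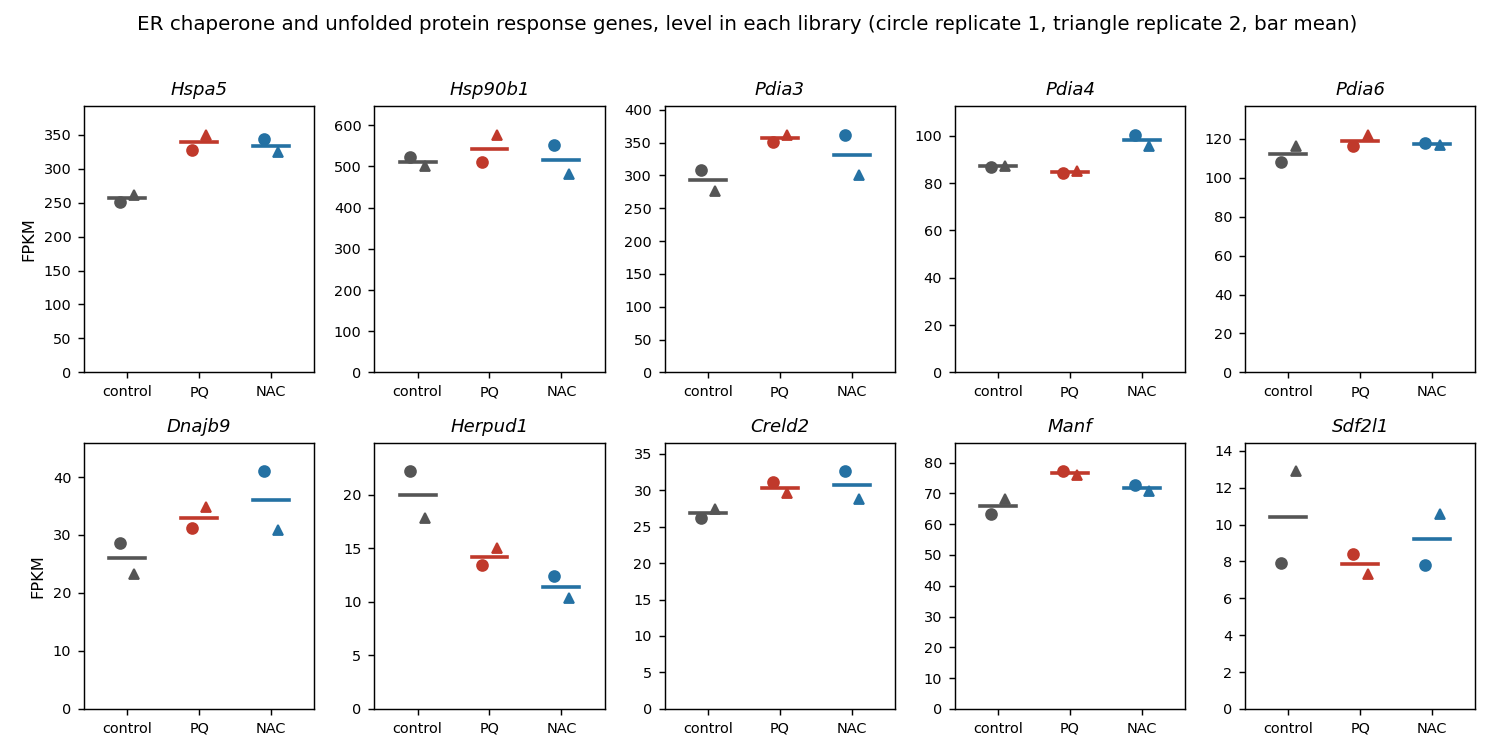
FPKM (y axis, from 0) of the 10 genes in the control, PQ and NAC libraries (x axis); circles are replicate 1, triangles replicate 2 and bars the mean of the group. Hspa5 lay at 251 and 261 in control and at 324 or more in the other libraries, while Herpud1 was highest in the control libraries.

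Among the chaperones, Hspa5 changed in both treatments. It encodes BiP, the HSP70 chaperone of the ER lumen that also holds the sensors inactive. Its FPKM was 251 and 261 in control, 328 and 349.8 in PQ and 343 and 324 in NAC. Both control libraries lay below all 4 treated libraries, and the PQ and NAC values interleaved. The control mean was 256 ± 7.16 FPKM, that of PQ 339 ± 15.2 and that of NAC 333 ± 13.7 (SD, n = 2 each). In edgeR (quasi-likelihood test, p adjusted by Benjamini-Hochberg over the 11717 genes tested), Hspa5 rose by a log2 fold change of 0.38 ± 0.09 (SE) in PQ against control (adjusted p = 0.0054), and by 0.33 ± 0.09 in NAC against control (adjusted p = 0.012). In PQ against NAC the log2 difference was 0.05 ± 0.09 (edgeR adjusted p = 0.74). Within the column protocol, PQ 1 exceeded control 1 by 0.34 log2, and within the TRIZOL protocol PQ 2 exceeded control 2 by 0.41, NAC 1 by 0.36 and NAC 2 by 0.26. The PQ call was lost without PQ 2 (log2 fold change 0.32, edgeR adjusted p = 0.076; 6.0e-04 to 0.076 over 13 alternatives). The NAC call was lost without control 1 (0.31, adjusted p = 0.055), without NAC 1 (0.28, adjusted p = 0.13) and with the protocol as a covariate (0.29, adjusted p = 0.091), where the change stayed close to the 0.33 of all 6 libraries; its adjusted p ranged from 0.0027 to 0.13 over the alternatives in edgeR, DESeq2 and limma.

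Hspa5 is shown with the whole upstream window, chr2:34771840-34772089 on the + strand, because among the 10 genes it was the one that passed the test with a rise in both PQ and NAC against control; capitals mark its ERSE.

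Hspa5: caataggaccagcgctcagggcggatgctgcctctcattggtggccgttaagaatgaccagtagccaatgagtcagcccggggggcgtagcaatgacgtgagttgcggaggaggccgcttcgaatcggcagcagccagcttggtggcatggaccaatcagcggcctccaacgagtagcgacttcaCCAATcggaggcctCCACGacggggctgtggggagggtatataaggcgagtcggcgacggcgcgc

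Hsp90b1 encodes GRP94, the HSP90 chaperone of the ER. Its FPKM was 522 and 501 in control, 510.3 and 577 in PQ and 551 and 481 in NAC. The groups overlapped, and the highest and lowest libraries came from PQ and NAC. The log2 fold change was 0.06 ± 0.10 in PQ against control and -0.03 ± 0.10 in NAC against control (edgeR adjusted p = 0.71 and 0.85). In PQ against NAC it was 0.10 ± 0.10 (edgeR adjusted p = 0.49).

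The protein disulfide isomerases form and rearrange disulfide bonds, and Pdia3 (ERp57) does so for glycoproteins held by calnexin and calreticulin. Pdia3 had an FPKM of 308 and 277 in control, 351 and 362 in PQ and 362 and 300.0 in NAC. Both PQ libraries lay above both controls, whereas NAC 2 fell between the controls. The log2 fold change was 0.26 ± 0.10 in PQ against control and missed the threshold (edgeR adjusted p = 0.083; unadjusted p = 0.02). It was past the threshold without control 1 (0.35, adjusted p = 0.047) and when no gene was filtered out (0.25, adjusted p = 0.033), in a range of 0.033 to 0.33 over the alternatives in edgeR, DESeq2 and limma. Against control, NAC gave 0.13 ± 0.10 (edgeR adjusted p = 0.4).

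Pdia4, an isomerase with additional thioredoxin-like domains, had an FPKM of 86.9 and 87.3 in control, 84.1 and 85 in PQ and 100.4 and 95.7 in NAC. The groups did not overlap: PQ was lowest and NAC highest. The differences were small, with log2 values of -0.07 ± 0.09 in PQ against control, 0.12 ± 0.09 in NAC against control and -0.19 ± 0.09 in PQ against NAC, and none passed the edgeR test (adjusted p = 0.64, 0.37 and 0.11). Pdia6, an isomerase that acts with BiP, had an FPKM of 108 and 116 in control, 116 and 122 in PQ and 118 and 117 in NAC. Control 2 and the treated libraries were close to each other, the groups overlapped, and the log2 fold changes were 0.06 ± 0.09 in PQ and 0.03 ± 0.09 in NAC against control (edgeR adjusted p = 0.68 and 0.85).

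Dnajb9 (ERdj4) is a J protein that directs BiP to misfolded clients and to the sensor IRE1. Its FPKM was 28.7 and 23.2 in control, 31.2 and 34.8 in PQ and 41 and 30.9 in NAC. All treated libraries lay above both controls, and NAC 1 was the highest of the 6. The log2 fold change was 0.43 ± 0.14 in NAC against control (edgeR adjusted p = 0.036) and 0.32 ± 0.14 in PQ against control (edgeR adjusted p = 0.12), and whether these differed was measured by PQ against NAC, -0.11 ± 0.13 (edgeR adjusted p = 0.59). The NAC call was lost with a smaller change without NAC 1 (0.20, edgeR adjusted p = 0.47) and without control 2 (0.27, adjusted p = 0.2). It was also lost, with a change about as large, with DESeq2 (0.42, adjusted p = 0.063), with limma (0.45 and 0.46, adjusted p = 0.073 and 0.07) and with the protocol as a covariate (0.46, adjusted p = 0.055), in a range of 0.0028 to 0.47. In PQ against control Dnajb9 passed without control 1 (0.49) and with no filter (0.31, edgeR adjusted p = 0.047), whereas without control 2 the value was 0.16. The deposited count of Dnajb9 was fractional in 1 library, which can arise when fragments also match another gene, while the other 9 genes had whole counts in every library.

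Herpud1 moved opposite to Hspa5. Its product is a membrane protein of ER-associated degradation (ERAD) that helps assemble the ligase complex exporting misfolded proteins to the proteasome. Its FPKM was 22.2 and 17.8 in control, 13.4 and 15 in PQ and 12.4 and 10.4 in NAC. Both controls lay above all 4 treated libraries, and both PQ libraries above both NAC libraries, although control 1 and control 2 also differed from each other by 0.33 log2. The control mean was 20 ± 3.09 FPKM, that of PQ 14.2 ± 1.17 and that of NAC 11.4 ± 1.41 (SD, n = 2 each). The log2 fold change was -0.52 ± 0.14 in PQ against control (edgeR adjusted p = 0.016) and -0.85 ± 0.15 in NAC against control (edgeR adjusted p = 3.4e-04). PQ against NAC gave 0.33 ± 0.15, which missed the threshold (edgeR adjusted p = 0.11). The NAC call passed in 13 of 13 alternatives. The PQ call was lost without control 1 (-0.35, edgeR adjusted p = 0.15) and without PQ 1 (-0.42, adjusted p = 0.18), in a range of 0.0018 to 0.18. Within the column protocol PQ 1 lay below control 1 by a log2 difference of -0.77, and within the TRIZOL protocol the differences from control 2 were -0.25 in PQ 2, -0.54 in NAC 1 and -0.81 in NAC 2.

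The Herpud1 window, chr8:94386179-94386428 on the + strand, is printed because it was the gene of the 10 with a fall past the threshold in the fit of all 6 libraries; capitals mark TTGCATCA, at positions -112 to -105 from the start, and the ERSE-II at -52 to -42.

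Herpud1: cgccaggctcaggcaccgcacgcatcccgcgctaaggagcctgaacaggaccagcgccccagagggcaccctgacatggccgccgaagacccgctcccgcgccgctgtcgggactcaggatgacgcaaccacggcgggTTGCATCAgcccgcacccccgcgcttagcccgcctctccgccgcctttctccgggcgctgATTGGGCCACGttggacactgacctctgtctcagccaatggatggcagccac

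Creld2 and Manf encode small secreted or ER-resident proteins whose release accompanies ER stress. Creld2 had an FPKM of 26.2 and 27.4 in control, 31.1 and 29.6 in PQ and 32.6 and 28.8 in NAC. Manf, a factor with neurotrophic activity, had an FPKM of 63.4 and 68.3 in control, 77.2 and 76.1 in PQ and 72.8 and 70.8 in NAC. In both genes every treated library lay above both controls, by small margins. The log2 fold changes of Creld2 were 0.15 ± 0.12 in PQ and 0.15 ± 0.11 in NAC against control (edgeR adjusted p = 0.4 and 0.4), and those of Manf 0.19 ± 0.09 and 0.08 ± 0.09 (edgeR adjusted p = 0.16 and 0.61).

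Sdf2l1, which works with ER J proteins to keep unfolded proteins soluble, was the least abundant of the 10. Its FPKM was 7.94 and 12.9 in control, 8.41 and 7.33 in PQ and 7.83 and 10.6 in NAC. Control 2 stood above the rest, and the groups overlapped. The log2 fold change was -0.43 ± 0.22 in PQ and -0.23 ± 0.21 in NAC against control (edgeR adjusted p = 0.19 and 0.51). Without control 1 the PQ value was -0.73 and passed, whereas without control 2 it was -0.05. The NAC value changed sign to 0.15 without control 2.

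Over the 10 genes, 2 passed the test in PQ against control (Hspa5 up, Herpud1 down), against 19.2% of all genes tested in that comparison, so this share is near the background. The median log2 fold change of the 10 was 0.11, with 7 above 0, and that of all genes tested was 0.00. The count was 4 with no filter on low values (Hspa5, Pdia3 and Dnajb9 up, Herpud1 down) and 4 without control 1 (Hspa5, Pdia3 and Dnajb9 up, Sdf2l1 down), and it was 1 without PQ 1 (Hspa5) and 1 without PQ 2 (Herpud1).

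For NAC against control, 3 of the 10 passed (Hspa5 and Dnajb9 up, Herpud1 down), against 18.7% of all genes tested. The median was 0.10, with 7 above 0, and that of all genes tested was 0.00. The count was 1 (Herpud1) with the protocol as a covariate and 1 (Herpud1) without NAC 1. The PQ and NAC comparisons share the control libraries, so their values stand side by side here and their likeness is no separate result.

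PQ against NAC, which does not use the control libraries as a reference, gave 0 of the 10 past the threshold by edgeR, against 31.6% of all genes tested. At an unadjusted p below 0.05 there were 2 by edgeR (Pdia4 and Herpud1), and DESeq2 and both limma fits also called 0 after adjustment. The median log2 difference was 0.04, and it lay between -0.01 and 0.11 over the alternatives. A p that misses the threshold does not show that the levels were equal.

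**Figure D2:**
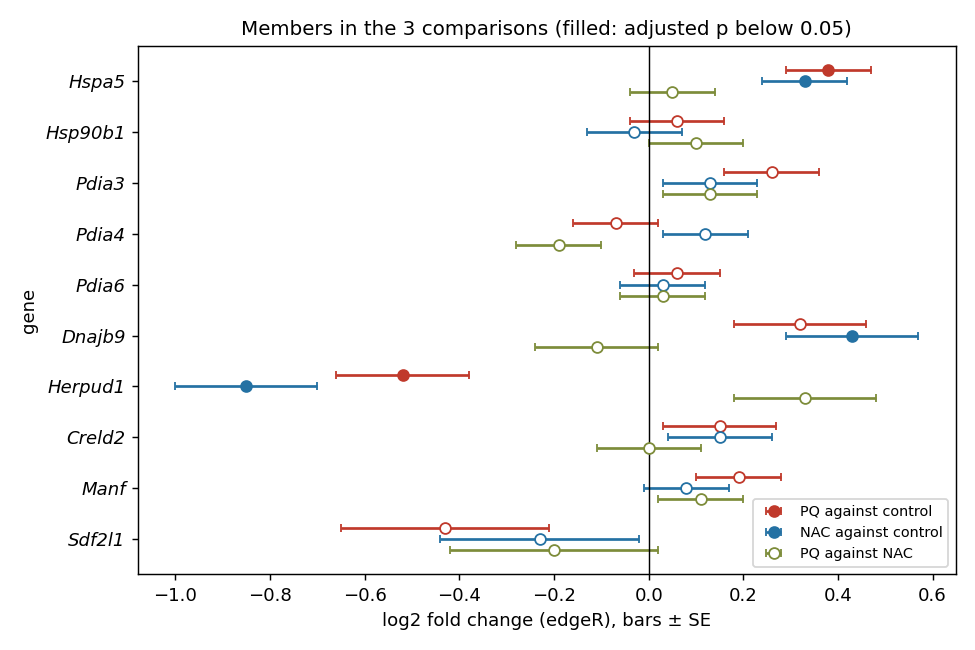
Log2 fold change from edgeR (x axis, bars ± SE) of the 10 genes (y axis) in PQ against control, NAC against control and PQ against NAC; filled points had an adjusted p below 0.05. Hspa5 at 0.38 and 0.33 and Herpud1 at -0.52 and -0.85 are filled in both comparisons with control, and no point is filled in PQ against NAC.

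The levels of the 10 genes, as log2 CPM (counts scaled to library size), each centred on its own mean and then averaged, were -0.02 and -0.02 in control, -0.01 and 0.06 in PQ and 0.06 and -0.06 in NAC. PQ 2 and NAC 1 were the high libraries. Both PQ libraries lay above both controls, PQ 1 by a narrow margin, while NAC had the lowest library and shared the highest value with PQ, so it overlapped both. Among 6685 genes outside every list with a mean FPKM of at least 10, the 5 whose log2 CPM followed this average most closely over the 6 libraries were Ppp1r12a (Pearson r = 0.98), Gtf3c6 (0.98), Alg2 (0.97), Clint1 (0.97) and Hsd17b12 (0.97). These are descriptions over 6 libraries that share protocols, with no test.

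Further ER genes outside the 10 were examined as lists. Of 34 other ER folding genes, 5 passed in PQ against control: Creld1 (0.61), Sdf2 (0.38) and calreticulin, Calr (0.37), rose, and the collagen chaperone Serpinh1 (-0.85) and the isomerase Pdia5 (-0.70) fell, with a median of -0.02. In NAC against control 8 passed, 3 up and 5 down, with a median of -0.01. The ER oxidase Ero1a, which passes oxidizing equivalents to the disulfide isomerases, had an FPKM of 689 and 651 in control, 498 and 676 in PQ and 233 and 261 in NAC. Both NAC libraries lay far below the other 4, with a log2 fold change of -1.49 ± 0.12 against control (edgeR adjusted p = 9.5e-08), next to -0.69 for Fkbp7 and -0.64 for Serpinh1. In PQ against NAC 8 passed, 4 in each direction, led by Ero1a (1.27), Creld1 (0.99) and Pdia5 (-0.92). Calr, like Hspa5, was lower in both controls (387 and 412) than in PQ (539 and 512) and NAC (537 and 490.5). Its promoter held an ERSE, as did those of Canx, Dnajc3 and Ero1b of this list. Canx and Ero1b passed in no comparison, nor did Hsp90b1, Pdia6 and Creld2, which carry an ERSE among the 10 genes. Of 35 genes with an ERSE 13 were tested; 4 passed in PQ against control (Calr and Hspa5 up, 2 down), 3 in NAC against control, all up (Calr, Dnajc3 and Hspa5), and 4 in PQ against NAC, 1 up and 3 down, with Dnajc3 at -0.45. Over all genes tested the shares were 19.2%, 18.7% and 31.6%. With the protocol as a covariate the NAC calls of Calr, Dnajc3 and Hspa5 were lost. Over the alternatives the log2 fold change in NAC against control was 0.24 to 0.39 for Calr, 0.30 to 0.51 for Dnajc3 and 0.28 to 0.38 for Hspa5.

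Over all genes tested, 19.2% passed in PQ against control, 18.7% in NAC against control and 31.6% in PQ against NAC. Of 23 tested ERAD genes, the list that Herpud1 belongs to by function, 2 passed in PQ against control, Ube2g2 (0.61) and Selenos (0.32). In NAC against control 2 passed, Ngly1 (0.51) and Man1b1 (0.30). Of 23 translocon, signal peptidase and glycosylation genes, 3 passed in PQ against control (Spcs1 at 0.32, Spcs3 at -0.35 and Rpn2 at -0.27) and 1 in NAC against control (Stt3a at -0.33). In PQ against NAC, 3 ERAD genes passed (Ube2g2 at 0.54, Selenos at 0.30 and Ngly1 at -0.52) and 3 of the translocon list (Sec61g at 0.61, Spcs1 at 0.45 and Spcs3 at -0.32).

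Of 10 sensors and regulators that act above the chaperones, 2 passed in PQ against control, 1 in NAC against control and 2 in PQ against NAC. The shares over all genes tested were 19.2%, 18.7% and 31.6%. The transcript of Ern1 (IRE1) had log2 fold changes of 0.00 in PQ and 0.33 in NAC against control, that of Eif2ak3 (PERK) 0.12 and 0.10, that of Atf6 -0.12 and -0.24 and that of Atf6b 0.10 and -0.18, none past the threshold. Xbp1 had 0.28 and 0.17 (edgeR adjusted p = 0.064 and 0.26), Creb3 0.34 and 0.16, and Creb3l2 -0.25 and -0.23, also not past it. Gene-level values do not show splicing of Xbp1 or cleavage of ATF6. Mbtps1, the site-1 protease that cleaves ATF6, was lower in PQ than in control (-0.31, edgeR adjusted p = 0.023) and NAC (-0.50, adjusted p = 3.3e-04). Creb3l1 was higher in PQ than in control (0.73, edgeR adjusted p = 0.049) and NAC (0.81, adjusted p = 0.019), and Mbtps2 was lower in NAC than in control (-0.36, adjusted p = 0.048).

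The PERK-ATF4 arm is a list of 12 genes named for the pathway, and PERK activity was not measured. Of these 12, 8 passed in PQ against control, 7 down and 1 up, with a median of -0.70. The 1 that rose was Cebpb (0.75, edgeR adjusted p = 0.015). In NAC against control 10 passed, all down with a median of -1.44. For PQ against NAC, 7 passed, all higher in PQ, with a median of 0.79. Of all genes tested, 19.2%, 18.7% and 31.6% passed in these 3 comparisons. The log2 fold change of Chac1 was -2.53 in PQ and -3.56 in NAC, that of Trib3 -2.06 and -2.84, and that of Asns -1.38 and -2.17. Ddit3, which encodes CHOP, had an FPKM of 77.5 and 35 in control, 28 and 28.2 in PQ and 24.5 and 22.5 in NAC. Control 1 stood above control 2 in 11 of the 12 genes, by 1.16 log2 for Ddit3, 1.04 for Trib3 and 0.56 for Atf4. For Ddit4 it stood below (-0.17). Among the 10 ER genes control 1 was higher in Herpud1 (0.33), Dnajb9 (0.32), Pdia3 (0.17), Hsp90b1 and Pdia4. It was lower in Hspa5, Pdia6, Creld2, Manf and Sdf2l1. The share over all genes tested was not counted. PQ 1 lay below control 1 in 11 of the 12 genes, whereas PQ 2 lay below control 2 in 7 and above it in 5 (Ppp1r15a, Atf3, Cebpb, Nupr1 and Vldlr). Each NAC library lay below control 2, which shares its labelled protocol, in 10 of the 12. The part of the difference between the control libraries in the Herpud1 values was not tested.

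**Figure D3:**
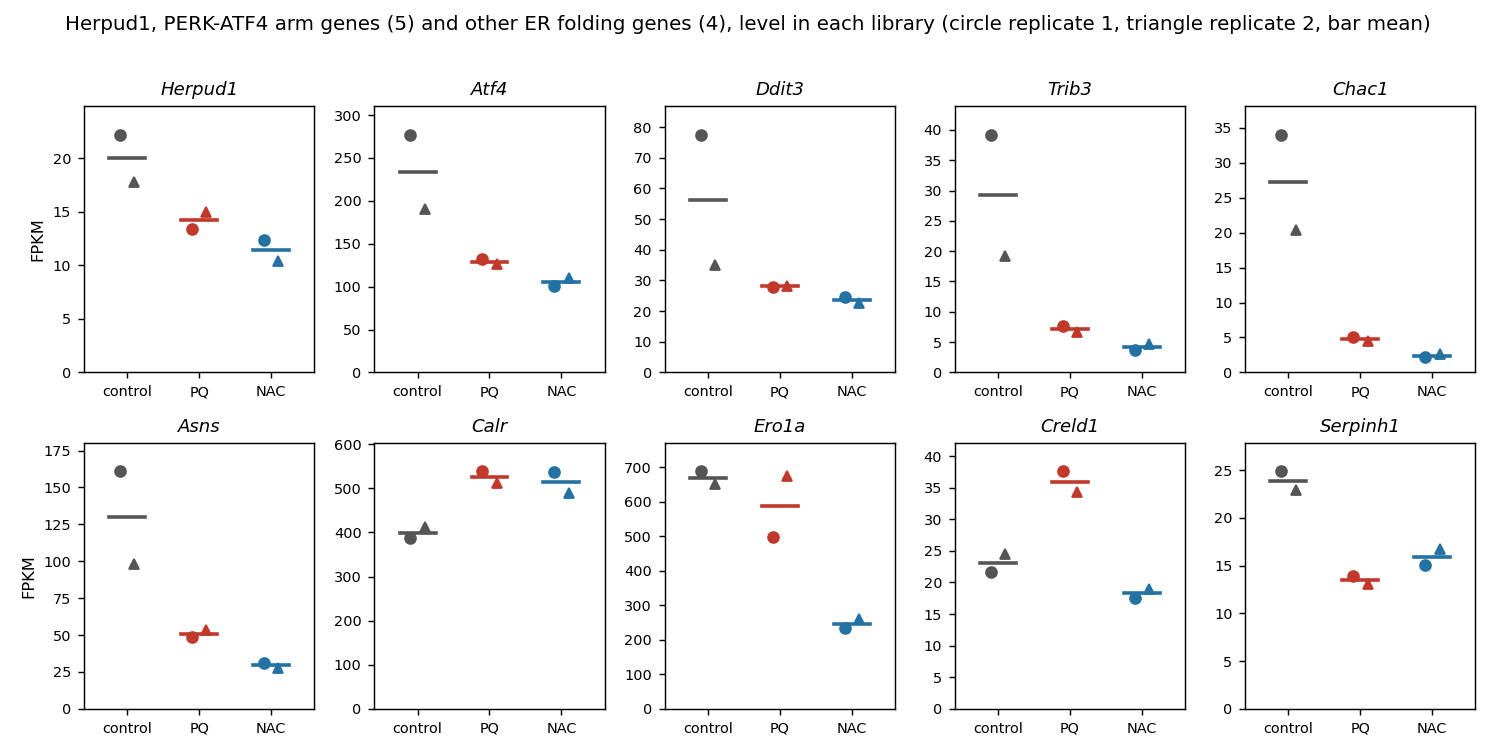
FPKM (y axis, from 0) of Herpud1, 5 genes of the PERK-ATF4 arm and 4 other ER folding genes in the control, PQ and NAC libraries (x axis); circles are replicate 1, triangles replicate 2 and bars the mean of the group. Ddit3 at 77.5 and 35 shows the gap between the controls, and Ero1a at 233 and 261 in NAC lies below the other 4 libraries.

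Heat shock genes outside the ER had a median of 0.08 in PQ against control. Of 12 tested, 4 passed in PQ against control, all up: Hspa1a (1.47), Hspa1b (1.14), Hsph1 (0.52) and Hspa8 (0.33). Hspa1a and Hspa1b are near-identical copies, so the division of fragments between them is uncertain, and their FPKM was low, at most 4.23. In NAC against control 2 passed, Hspa8 (0.35) and the mitochondrial Hspa9 (-0.92), and in PQ against NAC 4 passed, all up. Shares over all genes tested were 19.2% in PQ against control, 18.7% in NAC against control and 31.6% in PQ against NAC. Hspa9 had an FPKM of 550.1 and 363 in control and 259.8 and 239.8 in NAC. Its log2 fold change in NAC against control ranged from -1.19 to -0.58 over the alternatives. All 6 proliferation genes fell in PQ against control, led by Mki67 (-1.13), and 0 passed in NAC against control by edgeR, with 2 at an unadjusted p below 0.05.

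Single libraries moved several of these list counts by more than 1.5 times. In PQ against control, leaving out PQ 1 gave 0 sensors, 2 other ER folding, 0 ERAD, 0 translocon, 5 PERK-ATF4 and 2 heat shock genes; the sensor count was 1 without PQ 2, NAC 1 or NAC 2, the ERAD count was 1 without control 2, PQ 2, NAC 1 or NAC 2, and the translocon count was 1 without control 2 and 0 without PQ 2. In NAC against control, leaving out NAC 1 gave 5 other ER folding, 0 ERAD and 1 heat shock gene; leaving out control 1 gave 1 ERAD, 3 translocon and 1 heat shock gene; the sensor count was 2 without control 2 and 0 without PQ 1, PQ 2 or NAC 2; and the ERAD count was 1 without PQ 1 and 0 without PQ 2 or NAC 2. For PQ against NAC, the other ER folding count was 5 without PQ 2 or NAC 1, the ERAD count was 0 without PQ 1 and 1 without PQ 2 or NAC 1, the translocon count was 1 without NAC 1 and 5 without either control, the heat shock count was 2 without PQ 2 or NAC 2, and the sensor count was 1 without PQ 1. Other settings moved list counts too. For PQ against control, the sensor count was 1 with DESeq2 or only the 4 libraries compared and 0 in both limma fits, the ERAD count was 1 with no filter, DESeq2, the protocol covariate or only the 4 libraries compared, the translocon count was 1 in both limma fits, and the PERK-ATF4 count was 5 with limma on log2(FPKM + 1). For NAC against control, the sensor count was 0 with DESeq2, the covariate, only the 4 libraries compared and both limma fits, and the ERAD count was 0 with DESeq2, only the 4 libraries compared and limma on log2(FPKM + 1), and 1 with the covariate and limma on log2(FPKM + 0.1). The covariate also gave 5 other ER folding, 0 translocon and 1 heat shock gene there, and both limma fits gave 0 translocon genes. For the comparison of PQ with NAC, the sensor count was 1 with DESeq2, the covariate and both limma fits, the ERAD count was 1 with DESeq2, and the translocon count was 5 with only the 4 libraries compared. Calls of single genes named above moved as well, with no change of direction. For PQ against control, leaving out PQ 1 lost the calls of Mbtps1, Creb3l1, Calr, Sdf2, Pdia5, Ube2g2, Selenos, Spcs1, Spcs3, Rpn2, Ddit4, Cebpb, Hspa1a and Hspa8. Leaving out PQ 2 lost those of Mbtps1, Sdf2, Selenos, Spcs1, Spcs3, Rpn2 and Hspa8. Without control 1 those of Mbtps1, Sdf2, Spcs3, Ddit3 and Hspa8 were lost, and without control 2 those of Creb3l1, Selenos, Spcs1, Rpn2 and Cebpb. Creb3l1, Selenos and Rpn2 were also lost without NAC 1 and without NAC 2. The protocol covariate lost the calls of Selenos and Rpn2. DESeq2 lost those of Creb3l1, Sdf2, Selenos and Ddit3, and both limma fits those of Mbtps1, Creb3l1, Spcs3, Rpn2 and Ddit3. Limma on log2(FPKM + 1) lost Cebpb, only the 4 libraries compared lost Creb3l1, Selenos and Rpn2, and no filter lost Selenos. For NAC against control, leaving out NAC 1 lost the calls of Calr, Dnajc3, Creld1, Man1b1, Ngly1 and Hspa8. Leaving out NAC 2 lost those of Mbtps2, Creld1, Man1b1, Ngly1 and Stt3a. Without control 1 those of Mbtps2, Calr, Man1b1, Atf3 and Hspa8 were lost, and without control 2 those of Creld1 and Ngly1. Mbtps2 and Man1b1 were also lost without PQ 1 and without PQ 2, and Ngly1 without PQ 2. The protocol covariate lost the calls of Mbtps2, Calr, Dnajc3, Creld1, Man1b1, Stt3a and Hspa8. DESeq2 lost those of Mbtps2, Man1b1, Ngly1 and Atf3, and both limma fits those of Mbtps2, Creld1, Man1b1, Stt3a and Atf3. Limma on log2(FPKM + 1) lost Ngly1, and only the 4 libraries compared lost Mbtps2, Man1b1 and Ngly1. For the comparison of PQ with NAC, leaving out NAC 1 lost the calls of Creb3l1, Fkbp7, Dnajc3, Selenos, Ngly1, Sec61g, Spcs3, Trib3 and Chac1. Leaving out NAC 2 lost those of Creb3l1, Fkbp7, Selenos, Trib3, Hsph1 and Hspa9. Without PQ 1 those of Creb3l1, Dnajc3, Ube2g2, Selenos, Ngly1, Spcs3, Trib3 and Chac1 were lost. Without PQ 2 those of Fkbp7, Selenos, Ngly1, Spcs3, Trib3, Hsph1 and Hspa9 were lost. The protocol covariate lost the calls of Creb3l1, Selenos, Spcs3 and Trib3. DESeq2 lost those of Creb3l1, Fkbp7, Selenos, Ngly1, Trib3 and Hspa9. Both limma fits lost those of Creb3l1 and Trib3, and no filter lost that of Selenos.

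**Figure D4:**
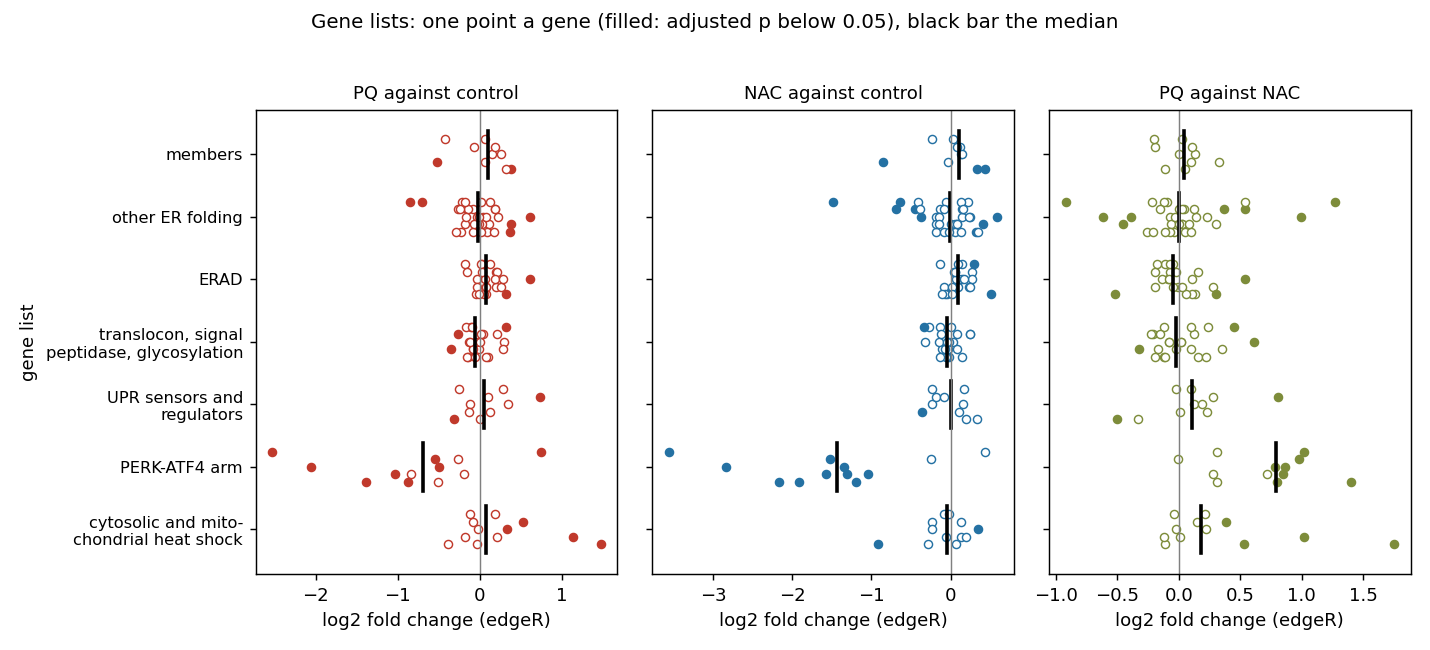
Log2 fold change from edgeR (x axis) of every tested gene of 7 lists (y axis) in PQ against control, NAC against control and PQ against NAC; filled points had an adjusted p below 0.05 and black bars are medians. The 10 ER genes centre on 0.11, 0.10 and 0.04, and the PERK-ATF4 arm on -0.70, -1.44 and 0.79.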

How the data were processed

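Gene tables of 6 libraries were used. The labels name Illumina sequencing with TopHat2 2.0.11, Cufflinks 2.1.1, bcl2fastq 2.17 and mm9 for control 1 and PQ 1, and BGISEQ-500 sequencing with HISAT2 2.0.4, Bowtie2 2.2.5, RSEM and mm10 for the others, yet all 6 tables have the same columns. The authors deposited an expected count for each gene, not normalized, and an FPKM. Expected counts were rounded and fitted over all 6 libraries with edgeR 4.0.16 (R 4.3.3; TMM scaling, quasi-likelihood test, two-sided) for the 11717 genes whose FPKM averaged 1 or more; all 10 ER genes passed this filter. Benjamini-Hochberg adjusted p below 0.05 was the threshold. Symbols were found for 99.7% of gene IDs. The fit was tested on simulated data. Alternatives used DESeq2 1.42.0, its size factors, limma 3.58.1 on log2(FPKM + 1) and log2(FPKM + 0.1), no filter, the labelled protocol as a covariate, only the 4 libraries compared, and each library left out.

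The 10 genes and the other lists were chosen with earlier results of these data known. From other lists, genes were named if they passed the test, did not overlap between groups and had the 3 largest changes; sensors were all named. Atf4, Ddit3, Cebpb, Ppp1r15a, Atf3, Vldlr, Calr, Dnajc3, Sdf2, Hspa8, Pcna and the individual markers were named after their values were seen. Left-out fits that leave 1 library in a group assume that it varies like the other groups. Library totals limit the precision of low genes such as Sdf2l1.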

Additional observations from a re-analysis of the deposited data

Results flagged for a closer look

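Hsp90b1 and Sdf2l1 drew attention because their PQ minus control difference had opposite signs in the 2 labelled protocols, each with 1 library per group. For Hsp90b1 the log2 difference was -0.08 with column-purified RNA and 0.20 with TRIZOL, and for Sdf2l1 it was 0.03 and -0.80. The difference between the protocols, which also differed in labelled sequencing platform and processing, was not tested.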

How the results depend on the processing

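Herpud1 in NAC against control kept its direction and its side of the threshold in 13 of 13 alternatives (its weakest log2 fold change was -0.67), and Hspa5 in PQ against control in 12 of 13 (0.32 to 0.44 in all). The medians of the 10 genes lay between 0.09 and 0.15 in PQ against control, 0.03 and 0.15 in NAC against control and -0.01 and 0.11 in PQ against NAC. The count in PQ against control was 4 with no filter and ranged from 1 to 4 when a library was left out; in NAC against control it was 1 with the replicate block, which used the labelled protocol as a covariate, and ranged from 1 to 3; in PQ against NAC it was 0 throughout. The numbers of the libraries are accession order, not labelled replicate numbers; for control and PQ they coincide with the labelled protocol, which is what the block used. The deviations of control 1 and PQ 1 from their group means had r = -0.08 across 11717 genes. The cause of these changes was not tested.

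Signs changed only for values that did not pass in either setting. In NAC against control, Pdia6 was -0.02 with the protocol covariate, Hsp90b1 was 0.01 in both limma fits, and in PQ against NAC Creld2 was 0.00 with DESeq2 and with its size factors. The other sign changes came from leaving out a library. In PQ against control Hsp90b1 then ranged from -0.04 to 0.16. In NAC against control the ranges were -0.14 to 0.07 for Hsp90b1, -0.02 to 0.27 for Pdia3, -0.01 to 0.08 for Pdia6 and -0.53 to 0.15 for Sdf2l1. In PQ against NAC they were -0.01 to 0.10 for Hspa5, -0.01 to 0.21 for Hsp90b1, -0.01 to 0.28 for Pdia3, -0.02 to 0.08 for Pdia6, -0.30 to 0.12 for Dnajb9, -0.09 to 0.10 for Creld2 and -0.40 to 0.02 for Sdf2l1.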
